A study of Mus musculus with 4 samples.

Results

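Mitochondrial ribosomal proteins were compared between *in vitro* MDSCs differentiated with and without G-CSF. The members were all genes whose symbol begins with *Mrpl* or *Mrps* followed by a number and at most a letter a, b or c. This rule found 77 of the 24346 genes listed for each library, 48 for the large subunit (*Mrpl*) and 29 for the small subunit (*Mrps*). The rule used the symbol and no measured value.

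The cells were BM cells of female C57BL/6J mice aged 6 to 8 weeks, cultured for 4 days with 40 ng/ml recombinant GM-CSF, which both groups received. The G-CSF group (n = 2) also received 5 ng/ml G-CSF, and the Control group (n = 2) did not. MDSCs are immature myeloid cells that suppress T cells, and no sorting step is given for the cells of these libraries, so each may hold a mixture of cells. The values are FPKM, fragments per kilobase of transcript scaled to the mapped reads of the library, which can be compared between genes because they are divided by length.

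The mitochondrial ribosome translates the few mRNAs encoded by mitochondrial DNA, all of which are for subunits of the oxidative phosphorylation complexes. Its rRNAs come from mitochondrial DNA, but all of its proteins are encoded in the nucleus, made by cytosolic ribosomes and imported. The small subunit reads the mRNA, and the large subunit forms peptide bonds and passes the new chain to the inner membrane. Some proteins descend from those of the bacterial ribosome, and others occur only in mitochondria.

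Expression of mitochondrial ribosomal protein genes was broadly and slightly higher with G-CSF. Of the 77 members, 28 rose with an adjusted p under 0.05 (limma on log2 FPKM, Benjamini-Hochberg adjustment over the 12064 genes tested), and 0 fell. Among all genes tested, 12.4% rose and 11.3% fell by the same threshold. Counting direction alone, 72 members had a log2 fold change above 0, against 50.1% of all genes tested. The median log2 fold change of the members was 0.19, or a level 14.1% higher, while the median over all genes tested was 0.00077. No member reached a fold change of 2, which 1.41% of all genes did along with an adjusted p under 0.05. In 56 members the lower G-CSF value exceeded the higher Control value, and in 2 the order was the opposite; 33.5% and 32.5% of all genes tested showed these separations. All 77 members passed the filter on low values, and the member with the fewest estimated reads, *Mrpl41*, had at least 100.9 in each library by its longest coding transcript. By the shortest coding transcript of each gene the lowest was *Mrpl17*, with 14.1. In bulk libraries such as these, more cells of a type and more RNA per cell cannot be told apart.

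The number of calls changed with the settings. It was 20 when very short genes were kept in the test, where 11.2% of all genes tested rose. It was 12 without a filter on low values, where 5.43% of all genes rose. When the spread was not modelled as a function of expression it was 0, and 0.157% of all genes rose. In that fit 33 members had an unadjusted p under 0.05 (limma), and the share of all genes was not counted. In the full fit 43 members and 4655 of all 12064 genes tested had one. In each of these fits 72 members lay above 0. With 1 library left out, 1 group held a single library, so calls in these fits are not used here. The median log2 fold change then ranged from 0.151 to 0.205 in the large and from 0.165 to 0.236 in the small subunit. All 28 members called in the full fit lay above 0 in each of these fits. This had to be so, since in each of the 28 both G-CSF values exceeded both Control values.

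**Figure D1:**
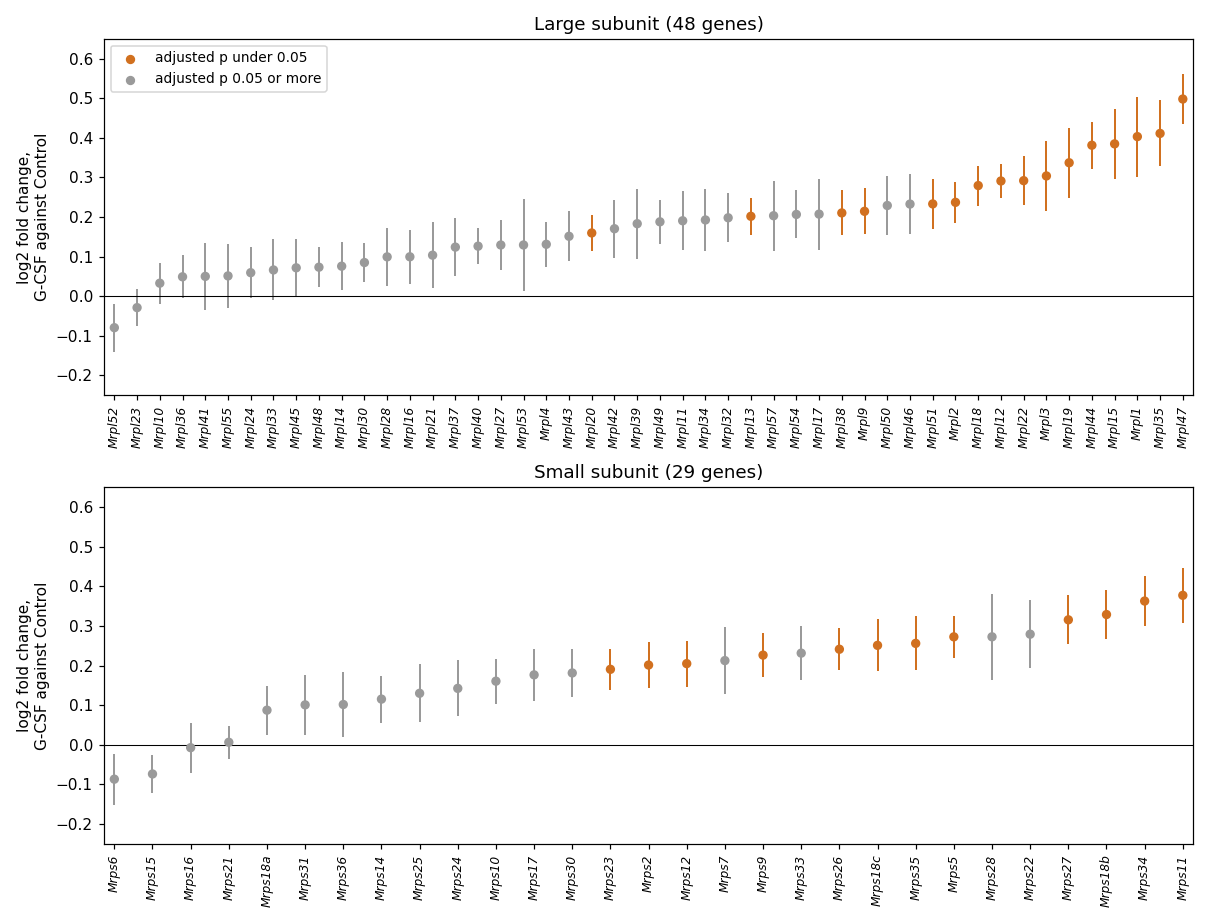
Log2 fold change of each mitochondrial ribosomal protein gene, G-CSF against Control (vertical axis), for the large and the small subunit, in order of size; points are limma estimates, bars are standard errors, and orange marks an adjusted p under 0.05. The 28 orange points all lie above 0, and the estimates run from -0.09 (*Mrps6*) to 0.50 (*Mrpl47*).

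The subunits had like medians. In the large subunit, 16 of 48 genes rose, with a median log2 fold change of 0.19 and a range from -0.08 to 0.50. In the small subunit, 12 of 29 rose, with a median of 0.20 and a range from -0.09 to 0.38. These shares were 33.3% and 41.4%, against 12.4% of all genes tested. The summed FPKM of the large subunit genes was 1996 and 1986 in the Control libraries and 2194 and 2218 in the G-CSF libraries. For the small subunit the Control sums were 1151 and 1171 FPKM and the G-CSF sums 1276 and 1290 FPKM. Both sums were thus higher in each G-CSF library than in each Control library. The ratio of the small to the large subunit sum was 0.577 and 0.589 in the Control and 0.582 in both G-CSF libraries, so the groups overlapped in this ratio. Together the members held 0.469% and 0.492% of all FPKM in the Control libraries and 0.540% and 0.544% in the G-CSF libraries. No test was made of the difference between the subunits.

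Among the large subunit genes, *Mrpl47* had the largest rise. It encodes a protein beside the opening of the exit tunnel, through which the new chain leaves the ribosome, and lies on chromosome 3 of GRCm38 (32725397 to 32737605, minus strand). Its level was 14.8 and 14.3 FPKM in Control and 20.1 and 21.2 FPKM with G-CSF, so that the groups were far apart. The log2 fold change came to 0.50 ± 0.0639 (standard error, SE; adjusted p = 0.00574, limma). On the opposite strand, exons of *Actl6a* and *Ndufb5* overlap 24.2% of its exon bases; *Actl6a* had a log2 fold change of 0.22 (adjusted p = 0.0303) and *Ndufb5* of 0.15 (adjusted p = 0.0646).

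*Mrpl12* encodes the mobile stalk protein that brings translation factors to the ribosome, and lies on chromosome 11 (120484613 to 120489065, plus strand). It stood at 99.97 and 103 FPKM in Control and at 125 and 123 FPKM with G-CSF, for a log2 fold change of 0.29 ± 0.0428 (SE; adjusted p = 0.0078, limma). The replicates were close to each other in both groups. On the opposite strand, *Gm16755* overlaps 13.1% of the exon bases of *Mrpl12*. *Mrpl10* and *Mrpl11*, whose proteins form the base of the stalk, did not pass the test. *Mrpl11* was at 10.01 and 9.72 FPKM in Control and 10.96 and 11.6 FPKM with G-CSF (log2 fold change 0.19, adjusted p = 0.113). *Mrpl10* was at 35.9 and 35.4 FPKM in Control and 35.6 and 37.4 FPKM with G-CSF (log2 fold change 0.03, adjusted p = 0.676), with overlapping groups.

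*Mrpl44*, whose protein has a fold related to RNase III and sits near the exit tunnel, is on chromosome 1 (79776018 to 79781445, plus strand). The Control libraries held 19.4 and 19.5 FPKM and the G-CSF libraries 24.6 and 26.1 FPKM, giving a log2 fold change of 0.38 ± 0.059 (SE; adjusted p = 0.00884, limma). Both G-CSF values were well above the nearly equal Control values. *Mrpl22*, which encodes a lining protein of the exit tunnel, rose from 29.9 and 32.3 to 39.2 and 36.9 FPKM (log2 fold change 0.29, adjusted p = 0.0209). *Mrpl18*, the homologue of a bacterial protein that binds ribosomal RNA, rose from 75.4 and 80.8 to 95.9 and 93.6 FPKM (log2 fold change 0.28, adjusted p = 0.0133). The less abundant *Mrpl35* rose from 6.76 and 7.17 to 9.14 and 9.45 FPKM (log2 fold change 0.41, adjusted p = 0.0183). In *Mrpl22*, *Mrpl18* and *Mrpl35* too the groups did not overlap. On the opposite strand, *Tcp1* overlaps 10.1% of the exon bases of *Mrpl18*. *Tcp1* was at 118 and 119 FPKM in Control and 153 and 147 FPKM with G-CSF (log2 fold change 0.34, adjusted p = 0.00563, limma). Of the 75-base windows of *Mrpl22* transcripts, 17.3% also occur in *Gm6997*. *Wdfy1* overlaps 7.7% of the exon bases of *Mrpl44* on the opposite strand.

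*Mrpl2* and *Mrpl3* encode proteins of the region where peptide bonds are formed. *Mrpl2* went from 37.5 and 39.3 FPKM in Control to 44.3 and 46.2 FPKM with G-CSF (log2 fold change 0.24, adjusted p = 0.023, limma). *Mrpl3* was at 25.5 and 30.3 FPKM in Control and 35.4 and 33.3 FPKM with G-CSF (log2 fold change 0.30, adjusted p = 0.0494); its Control libraries differed more from each other than its G-CSF libraries did. Without Control replicate 1 the log2 fold change of *Mrpl3* was 0.18. The gene was called in 2 of 8 other settings, besides being lost without the trend. *Mrpl45*, whose protein holds the ribosome to the inner membrane, was at 25.8 and 27.1 FPKM in Control and 26.1 and 29.5 FPKM with G-CSF, where the groups overlapped (log2 fold change 0.07, adjusted p = 0.511).

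In the small subunit, *Mrps34* had the smallest p. Its protein occurs only in mitochondria and is needed for a stable small subunit, and the gene lies on chromosome 17 (24895116 to 24897502, plus strand). It stood at 30.6 and 29.8 FPKM in Control and at 40.8 and 37.0 FPKM with G-CSF, for a log2 fold change of 0.36 ± 0.0629 (SE; adjusted p = 0.012, limma). The value is uncertain, because 32.4% of the 75-base windows of its transcripts also occur in *Nme3*, which overlaps it on the same strand. *Nme3* itself was at 12.6 and 13.6 FPKM in Control and 16.2 and 14.7 FPKM with G-CSF (log2 fold change 0.24, adjusted p = 0.076). On the opposite strand *Mapk8ip3* covers 63.4% of the exon bases of *Mrps34*; it was at 12.6 FPKM in both Control libraries and at 11.7 and 12.3 FPKM with G-CSF (log2 fold change -0.07, adjusted p = 0.522). *Mrps11*, for a protein of the platform of the small subunit, is on chromosome 7 (78783119 to 78792989, plus strand). It rose from 16.9 and 17.3 to 23.4 and 21.1 FPKM (log2 fold change 0.38 ± 0.0696 SE, adjusted p = 0.0143). The next gene, *Mrpl46*, overlaps it on the opposite strand and was higher in both G-CSF libraries (28.3 and 28.4 FPKM) than in Control (22.4 and 25.8 FPKM), without passing the test (log2 fold change 0.23, adjusted p = 0.07).

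*Mrps27*, which encodes an RNA-binding protein with pentatricopeptide repeats, rose from 15.4 and 15.2 to 18.7 and 19.5 FPKM (log2 fold change 0.32, adjusted p = 0.0163, limma). *Mrps26*, another gene without a bacterial counterpart, rose from 41.0 and 43.6 to 49.0 and 50.9 FPKM (log2 fold change 0.24, adjusted p = 0.0238). Both groups of *Mrps27* and of *Mrps26* were narrow and apart. On the opposite strand, *6430562O15Rik* overlaps 24.2% of the exon bases of *Mrps27*. Of the genes for the path of the mRNA and the decoding region, *Mrps5* rose from 28.2 and 28.9 to 33.7 and 35.3 FPKM (log2 fold change 0.27, adjusted p = 0.016). *Mrps12*, at the site where codons are read, rose from 41.2 and 45.0 to 48.9 and 50.4 FPKM (log2 fold change 0.20, adjusted p = 0.048).

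The paralogs *Mrps18a*, *Mrps18b* and *Mrps18c* encode variants of a single bacterial protein, and the product of *Mrps18a*, like that of *Mrps30*, is built into the large subunit despite its name. *Mrps18b* (chromosome 17, 35910379 to 35916389, minus strand) rose from 42.5 and 45.4 to 52.9 and 57.5 FPKM (log2 fold change 0.33 ± 0.0613 SE, adjusted p = 0.0147, limma). *Mrps18c* rose from 83.0 and 93.5 to 102 and 107 FPKM (log2 fold change 0.25, adjusted p = 0.0373, limma), with a log2 fold change of 0.165 without Control replicate 1. On the opposite strand, *Gm16279* overlaps 30.5% of the exon bases of *Mrps18b*, and 12.1% of the *Mrps18b* windows occur in *Gm13552*. On the same strand, *Gm43511* overlaps 23.2% of the exon bases of *Mrps18c*. *Mrps18a* was at 48.0 and 49.3 FPKM in Control and 49.1 and 54.4 FPKM with G-CSF (log2 fold change 0.09, adjusted p = 0.339), with overlapping groups; whether its change differed from those of its paralogs was not tested. *Mrps30* stood at 19.3 and 18.3 FPKM in Control and 21.5 and 21.1 FPKM with G-CSF (log2 fold change 0.18, adjusted p = 0.0735). Counting both with the large subunit gave medians of 0.18 for the large and 0.20 for the small subunit.

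Only 5 members had a log2 fold change below 0, and none of them passed the test; they are named here after their values were seen. *Mrps6* was at 22.3 and 21.4 FPKM in Control and 19.8 and 21.3 FPKM with G-CSF (log2 fold change -0.09, adjusted p = 0.362, limma). *Mrps15* was at 78.1 and 74.2 FPKM in Control and 71.1 and 73.6 FPKM with G-CSF (log2 fold change -0.07, adjusted p = 0.307). These are the only 2 members in which both G-CSF values were below both Control values. *Mrpl52* had a log2 fold change of -0.08, *Mrpl23* of -0.03 and *Mrps16* of -0.01, all with overlapping groups, and each of these 3 lay above 0 in at least 1 fit that left out a library. *Mrps21*, the member with the highest level, stood at 220.5 and 216 FPKM in Control and 217 and 221 FPKM with G-CSF (log2 fold change 0.0062, and -0.0149 with upper-quartile scaling).

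**Figure D2:**
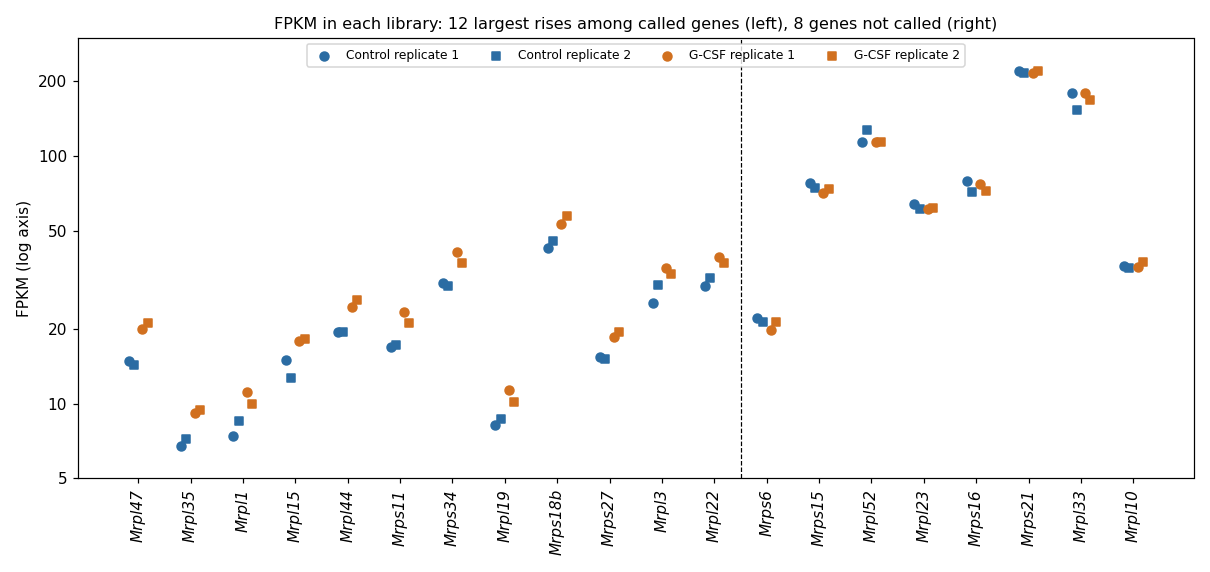
FPKM on a log axis in each of the 4 libraries for the 12 called genes with the largest log2 fold changes (left of the dashed line) and for 8 genes that were not called (right); colour marks the group and shape the replicate. On the left every orange point lies above both blue points of its gene, as for *Mrpl47* (14.8 and 14.3 against 20.1 and 21.2 FPKM), while on the right the groups lie close together or overlap. The genes were placed by whether they were called, so this contrast follows from the choice.

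Levels differed widely between members although most of their proteins are present once in each ribosome. Mean FPKM over the 4 libraries ran from 6.94 (*Mrpl17*) to 170 (*Mrpl33*) in the large subunit, with a median of 35.1, and from 9.87 (*Mrps31*) to 219 (*Mrps21*) in the small subunit, with a median of 31.5. The next highest were *Mrpl20* at 120 FPKM and *Mrpl52* at 117 FPKM, and their ranges over the libraries overlapped. *Mrpl33* was at 179 and 154 FPKM in Control and 179 and 169 FPKM with G-CSF, so that its replicates differed as much as its groups. At the low end, *Mrpl17* was at 6.18 and 6.70 FPKM in Control and 7.38 and 7.51 FPKM with G-CSF (log2 fold change 0.21, adjusted p = 0.142, limma). *Mrps31* (log2 fold change 0.10, adjusted p = 0.371) and *Mrps25* (0.13, adjusted p = 0.242) were the lowest of the small subunit. The order of the members was nearly the same in all libraries: across the 77 genes, which are not independent replicates, Pearson's r of log2 FPKM was 0.994 between the Control libraries, 0.993 between the G-CSF libraries and between 0.990 and 0.993 across groups.

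Log2 fold changes were larger in members with longer transcripts and lower levels, mainly in the large subunit. Spearman's rho of the log2 fold change with the length of the longest coding transcript was 0.35 over the 77 members, 0.46 in the large subunit (n = 48) and 0.09 in the small subunit (n = 29), and -0.07 over all genes tested. With the mean FPKM it was -0.34 over the members, -0.39 in the large and -0.18 in the small subunit, and 0.12 over all genes tested. These are descriptions across genes that share the same 4 libraries, and length and level were themselves related among the members (rho = -0.56). Of the 20 members with the longest transcripts, 10 rose and 19 had G-CSF values wholly above the Control values. Of the 20 with the shortest, 5 rose and 10 showed that separation. Among all genes tested, 12.4% rose and 33.5% showed it.

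**Figure D3:**
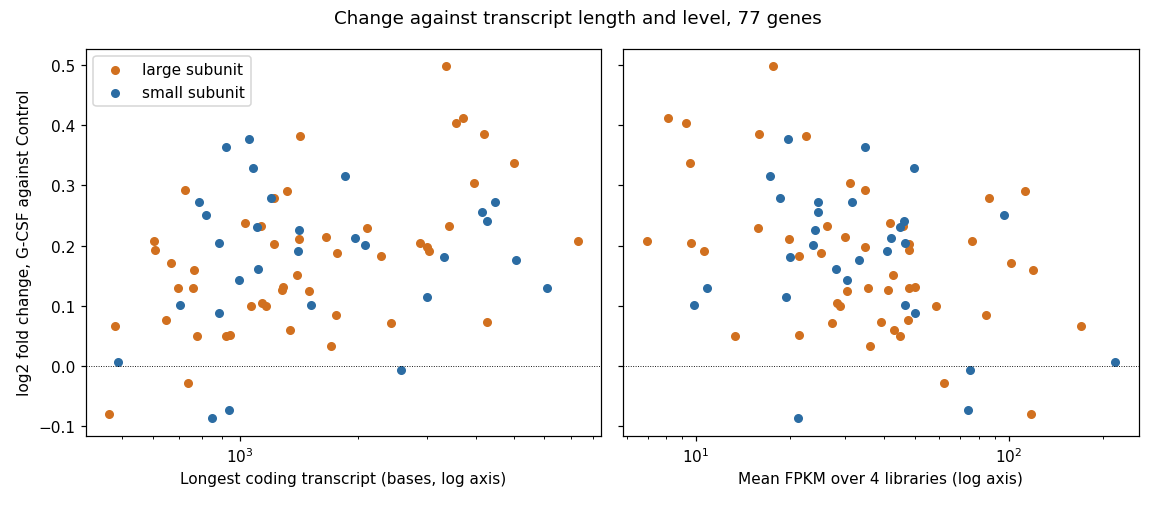
Log2 fold change of the 77 genes, G-CSF against Control (vertical axis), against the longest coding transcript in bases (left, log axis) and the mean FPKM over the 4 libraries (right, log axis); each point is a gene, orange for the large and blue for the small subunit. Points rise toward longer transcripts (rho = 0.35) and fall toward higher levels (rho = -0.34).

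Proteins of bacterial descent and those found only in mitochondria had like medians. Grouped from general knowledge of the ribosome's structure, after the values were seen, 48 members had a bacterial counterpart and 29 did not. Their median log2 fold changes were both 0.19, and 20 of the first (41.7%) and 8 of the second (27.6%) rose, against 12.4% of all genes tested. In the large subunit 13 of 30 genes with a bacterial counterpart rose (43.3%) and 3 of 18 without one (16.7%, near the share of all genes). In the small subunit it was 7 of 18 (38.9%) and 5 of 11 (45.5%). Of the 5 genes at the exit tunnel, *Mrpl47* and *Mrpl22* rose, and *Mrpl4*, *Mrpl23* and *Mrpl24* did not pass the test. For 39 members, no exon overlaps another gene and at most 5% of the transcript windows occur elsewhere. Of these 11 rose (28.2%, against 12.4% of all genes tested), 36 lay above 0, and their median log2 fold change was 0.18. The most shared member was *Mrpl53*, with 78.8% of its windows in the overlapping *Gm42688*, and its replicates with G-CSF were far apart (32.4 and 41.9 FPKM, against 33.0 and 34.4 FPKM in Control). *Mrps36*, whose product has been placed in a dehydrogenase complex of the citric acid cycle, was at 44.0 and 45.7 FPKM in Control and 52.3 and 44.3 FPKM with G-CSF, with overlapping groups.

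The promoters of the members were searched for the letters of known factor motifs. Promoter sequences from RefSeq (GRCm38.p6), windows of 300 bases around the start, were found for 68 of the 77 members. The motif of ETS factors, CCGGAAG on either strand, occurred in 24 of the 68 members (35.3%), in 9.12% of all 27025 promoters and in 18.8% of those of genes tested. It was found in 13 of 42 large and 11 of 26 small subunit genes. Of the 22 members that rose and had a promoter sequence, 10 held it (45.5%), and of the 46 others 14 (30.4%). The core of the motif of NRF1, a factor known for genes of mitochondrial function, was searched as GCATGCG on both strands, which overlap in longer matches; it was in 8 members (11.8%), 3.64% of all promoters and 6.68% of those of genes tested. The core for YY1, AGATGGC, was in 12 members (17.6%), 6.45% of all promoters and 7.62% of those of genes tested. The E-box CACGTG, which MYC and related factors bind, was in 5 members (7.35%), 7.24% of all promoters and 10.4% of those of genes tested. CCAAT was in 27 members (39.7%), 37.9% of all promoters and 39.0% of those of genes tested. These matches are letters in a window and not measured binding.

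The 150 bases before the start are shown for 4 members that rose and, below them, 2 that did not pass the test (*Mrpl10* and *Mrpl52*). They let the same letters be seen in both kinds. Each window shown holds an ETS or NRF1 match. The windows shown are not typical in this. Most members that rose and had a promoter sequence have neither in these bases, among them *Mrpl12*, *Mrpl18* and *Mrpl47*. Most of those that did not pass the test have neither as well. Capitals mark the ETS and NRF1 letters, and each sequence runs 5′ to 3′ on the gene's strand.
*Mrpl22*, chr11:58171514-58171663, plus strand: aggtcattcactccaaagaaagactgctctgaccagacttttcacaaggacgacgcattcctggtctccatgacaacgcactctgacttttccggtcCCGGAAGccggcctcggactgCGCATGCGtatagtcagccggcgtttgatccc
*Mrps27*, chr13:99344636-99344785, plus strand: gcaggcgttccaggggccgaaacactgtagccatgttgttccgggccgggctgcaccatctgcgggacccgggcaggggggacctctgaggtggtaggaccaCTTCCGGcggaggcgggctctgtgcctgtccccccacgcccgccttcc
*Mrps26*, chr2:130563607-130563756, plus strand: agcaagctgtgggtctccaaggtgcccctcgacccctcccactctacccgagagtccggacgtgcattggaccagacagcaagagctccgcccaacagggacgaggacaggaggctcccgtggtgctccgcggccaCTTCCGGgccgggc
*Mrpl9*, chr3:94443186-94443335, plus strand: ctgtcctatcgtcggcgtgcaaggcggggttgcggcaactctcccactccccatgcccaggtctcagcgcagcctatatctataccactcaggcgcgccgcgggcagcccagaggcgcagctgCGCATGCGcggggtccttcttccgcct
*Mrpl10*, chr11:97041432-97041581, plus strand: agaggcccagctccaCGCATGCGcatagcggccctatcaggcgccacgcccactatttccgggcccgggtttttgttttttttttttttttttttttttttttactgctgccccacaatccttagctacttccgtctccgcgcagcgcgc
*Mrpl52*, chr14:54426759-54426908, plus strand: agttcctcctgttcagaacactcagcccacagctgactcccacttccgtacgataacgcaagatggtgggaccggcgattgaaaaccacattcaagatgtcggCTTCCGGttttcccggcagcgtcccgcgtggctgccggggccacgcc
An ETS match stood in *Mrpl22*, *Mrps27* and *Mrps26*, and an NRF1 match in *Mrpl22* and *Mrpl9*. *Mrpl9* rose from 27.5 and 27.8 to 31.0 and 33.3 FPKM (log2 fold change 0.21, adjusted p = 0.0415, limma). The same NRF1 letters stood in *Mrpl10* and the same ETS letters in *Mrpl52*, neither of which passed the test.

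Other proteins and factors of mitochondrial translation were followed in 4 lists of genes. Mitoribosomal proteins with other symbols had 4 of 6 genes higher by the test, against 12.4% of all genes tested, and a median log2 fold change of 0.23. *Ptcd3*, for a pentatricopeptide repeat protein of the small subunit, rose from 18.9 and 18.9 to 24.6 and 24.7 FPKM (log2 fold change 0.38, adjusted p = 0.00737, limma). *Gadd45gip1*, whose product sits at the exit tunnel, rose from 16.3 and 14.8 to 20.8 and 21.3 FPKM (log2 fold change 0.43, adjusted p = 0.0102), and *Chchd1*, of the small subunit, rose by less (0.17, adjusted p = 0.0356).

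Of 26 genes for assembly of the mitochondrial ribosome, 2 rose, 0 fell, and the median log2 fold change was 0.16. The share that rose was below that of all genes tested, and these genes have low levels (median 7.49 FPKM). *Trmt61b*, which methylates mitochondrial RNA, rose from 3.08 and 3.86 to 5.71 and 6.05 FPKM (log2 fold change 0.75, adjusted p = 0.0133, limma), and *Dhx30*, an RNA helicase, rose as well (log2 fold change 0.35, adjusted p = 0.0192). *Noa1*, a GTPase, had a log2 fold change of 0.23 (adjusted p = 0.0531). Of 14 translation factors all lay above 0 and 2 rose (14.3%, near the 12.4% of all genes tested): *Mtif2*, the initiation factor (log2 fold change 0.30, adjusted p = 0.0247), and *Tsfm*, which recharges the elongation factor (0.30, adjusted p = 0.0273). *Mtrf1*, of the release factor family, had a log2 fold change of 0.37 (adjusted p = 0.0541). Among 16 genes for mitochondrial DNA and RNA, 6 rose and 0 fell, with a median of 0.23. Examples were *Slirp*, which stabilises mitochondrial mRNA (0.23, adjusted p = 0.0237), *Ssbp1*, which binds single-stranded DNA (0.36, adjusted p = 0.0322), and the helicase *Supv3l1* (0.29, adjusted p = 0.0322). The rRNAs and mRNAs of mitochondrial DNA were not analysed here.

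Cytosolic ribosomal proteins and the subunits of oxidative phosphorylation encoded in the nucleus were the groups set beside the members. Of 76 cytosolic ribosomal protein genes tested, 51 rose and 0 fell, with a median log2 fold change of 0.21 and quartiles of 0.18 and 0.24. The quartiles of the mitochondrial ribosomal proteins were farther apart, at 0.10 and 0.24. Of 74 oxidative phosphorylation genes, 12 rose (16.2%, near the 12.4% of all genes tested) and 0 fell, with a median of 0.065. The median level was 1074 FPKM for the cytosolic genes and 34.6 FPKM for the members. The differences between these groups were not tested.

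**Figure D4:**
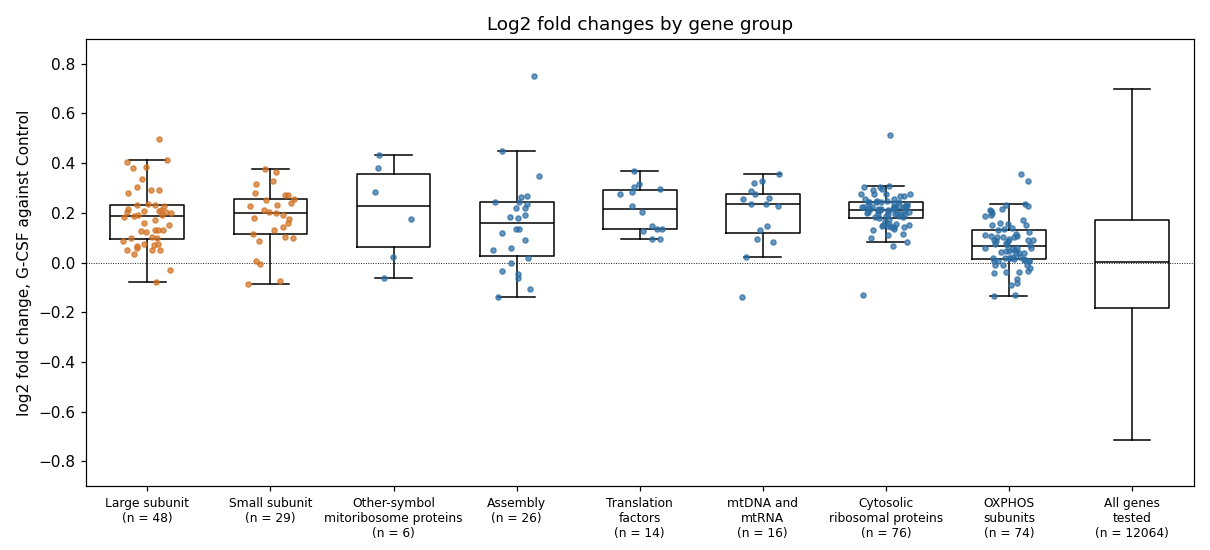
Log2 fold changes, G-CSF against Control (vertical axis), in groups of genes; points are genes (not drawn for all genes tested), boxes span the quartiles with the median, and whiskers reach the farthest gene within 1.5 times the box height. The medians are 0.19 (large subunit), 0.20 (small subunit), 0.21 (cytosolic ribosomal proteins), 0.065 (oxidative phosphorylation) and 0.00077 (all genes tested).

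The libraries had an estimated depth of 12.45 to 15.7 M mapped reads. The myeloid identity of the cells was seen in *S100a8*, *S100a9*, *Itgam* and *Ly6c2*, with between 395 FPKM (*Itgam*) and 35613 FPKM (*S100a8*) in every library, and all 4 liver genes checked were listed at 0, which matters because a label gives liver as the source of the RNA. Markers of other cells moved with G-CSF. Of 5 dendritic cell markers 3 fell (sum 90.6 to 109 FPKM in Control, 57.4 to 77.2 with G-CSF), of 4 macrophage markers 3 fell (73.2 to 80.6 against 56.3 to 62.4 FPKM) and all 3 mast cell and basophil markers fell (76.2 to 76.4 against 48.6 to 53.1 FPKM). B cell markers summed to 1.67 to 2.12 FPKM in Control and 0.848 to 1.06 FPKM with G-CSF, and T cell markers to 1.37 to 1.72 and 1.11 to 1.40 FPKM. Of the 9 MDSC markers 1 rose and 4 fell, and their sum was 60235 to 69879 FPKM in Control and 48401 to 48625 FPKM with G-CSF. *Elane*, a marker of early granulocytic cells, rose (280 and 232 against 550 and 467 FPKM), and *S100a9*, *Itgam*, *Csf3r* and *Csf1r* fell. The part of these shifts in the mitochondrial ribosomal protein values was not tested.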

How the data were processed

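RNA-seq of 4 libraries was used, 2 Control and 2 G-CSF, grouped by their titles. The authors deposited a value per gene for each library; the submitters' processing notes name TopHat2 2.0.13, Bowtie2 2.2.3, SAMtools 0.1.19, Cufflinks 2.2.1 and mm10, from 75-base single-end reads of stranded mRNA libraries. The deposited values were taken as FPKM, which no label states. Whether counting used the strand is not given in the sources used here. Mapped reads were estimated from steps of low values and GENCODE M21 (GRCm38) transcript lengths less 210 bases (65.3% to 70.6% of 453 to 495 values per library lay within 0.05 of a whole read), with the longest coding transcript for each gene. Genes needed 10 estimated reads in 2 libraries and 15 in all; 370 genes without a length and 1308 short or small RNA genes, whose reads cannot be estimated, were left out. This step was not in the planned design and was chosen after both outcomes were seen (28 members called with it, 20 without it). log2(FPKM + 0.1) was fitted with limma 3.58.1 (R 4.3.3; lmFit, eBayes with trend, two-sided), without a replicate block, and adjusted over 12064 genes. Fold changes are on this scale. Calls needed an adjusted p under 0.05. Figures and descriptions used python 3.11.15, pandas 2.3.3, scipy 1.17.1 and matplotlib 3.10.9.

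The members, gene lists and tests were chosen with earlier results of these data known. Named members are up to 6 per subunit and direction with the smallest p, the 2 highest and 2 lowest by level, and a set of structural roles; from each other list, the 3 with the smallest p. Members named outside this rule were chosen after their values were seen. The paper calls the libraries biological replicates (n = 2). The labels do not say whether they came from separate mice, so p-values measure the spread between these libraries. Intervals for reads are not given, since reads were estimated. Alternatives were 2 pseudocounts, 2 filters, 2 scalings, the replicate block, no trend, very short genes kept (chosen after seeing the data), both *Mrps* genes of the large subunit moved, and each library left out.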

Additional observations from a re-analysis of the deposited data

How the results depend on the processing

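The direction of the members as a group changed little with the processing, and the number of calls changed a good deal. Without a filter on low values, 12 members were called (7 large, 5 small), and 5.43% of the 16234 genes tested in that fit rose. Without a trend in limma's eBayes, 0 members were called (0 large, 0 small), against 43 of all 12064 genes. There 33 members had an unadjusted p under 0.05, and the share of all genes was not counted. In the full fit 43 members and 4655 of all 12064 genes had one. The cause of the loss of calls was not tested. With very short genes kept, a setting chosen after seeing the data, 20 were called, and 11.2% of all genes tested rose. With 1 FPKM required in 2 libraries it was also 20, and 12.4% of all genes rose. Upper-quartile scaling gave 23 (10.8% of all genes rose) and median-ratio scaling 24 (12%). A pseudocount of 1 FPKM gave 26 (12.3%) and of 0.01 FPKM 28 (12.4%). With each library left out in turn, 6 to 20 members were called (4 to 11 large, 2 to 9 small), and the median log2 fold change ranged from 0.151 to 0.205 in the large and from 0.165 to 0.236 in the small subunit. In these fits 1 group has a single library, which is assumed to vary like the others. A smaller share of all genes tested also rose in each of them than in the full fit. With a single library in a group, these calls cannot show whether members rose more often than all genes, and no conclusion is drawn from them. All 28 called members lay above 0 with each library left out, as they must where both G-CSF values exceed both Control values. *Mrps21* turned to -0.0149 with upper-quartile scaling, and with libraries left out it ranged from -0.0095 to 0.022. Ranges that crossed 0 on leaving out a library were also those of *Mrpl10* (-0.0033 to 0.0694), *Mrpl23* (-0.0607 to 0.0034), *Mrpl33* (-0.0441 to 0.177), *Mrpl45* (-0.0164 to 0.16), *Mrpl52* (-0.162 to 0.0029), *Mrpl53* (-0.057 to 0.316), *Mrps16* (-0.0775 to 0.0627), *Mrps36* (-0.0181 to 0.221), *Mrpl21* (-0.0131 to 0.221), *Mrpl36* (-0.002 to 0.1004), *Mrpl41* (-0.044 to 0.144) and *Mrpl55* (-0.0392 to 0.142).

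With the replicate number as a block, 38 members were called (21 large, 17 small), among them all 28, and 0 fell. In that fit 16.7% of all genes tested rose. The numbers are shared only in name by the labels; libraries with the same number deviated together with r = 0.233 across genes.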
